A study of Canis lupus familiaris with 13 samples.

Results

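Expression of 9 receptors and factors of mammary epithelium was followed through tumor biopsies of dogs treated with IMAX. The genes were the steroid hormone receptors ESR1 and PGR, the prolactin receptor PRLR, the ERBB family receptors EGFR, ERBB2, and ERBB3, the receptor KIT, and the luminal transcription factors GATA3 and FOXA1. They were taken from the raw count table by gene symbol, and all 9 were found among its 43427 symbols and passed the filter on low counts. IMAX is a nanoparticle made of a polyethyleneimine and lithocholic acid conjugate, the chemotherapeutic paclitaxel, and a cyclic dinucleotide that activates STING, and it was injected directly into the tumor.

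RNA was measured in 13 strand-specific libraries from 4 naturally occurring tumors of 3 companion dogs, all of them treated with IMAX. Dog RV, a spayed female with a soft tissue sarcoma, gave a library before treatment and a library at 2 days after the second dose. It also gave 2 libraries at 2 weeks after the third dose. One came from the injection site and one from a site adjacent to it, both within the same mass. Dog CL, an intact female, carried a ductal carcinoma in a cranial and a complex carcinoma in a caudal mammary gland. Each CL tumor gave a library before treatment, at 1 week, and at 1 month after the second dose. Dog BM, a spayed female with a solid carcinoma of the left caudal mammary gland (gland 5), gave a library before treatment, at 1 week, and at 3 weeks after the second dose. Below, "early" stands for 2 days in RV and 1 week in CL and BM, and "late" for the last biopsy, which came from the surgery that removed the tumor. There were no untreated tumors, the sarcoma comes from 1 dog, and the CL tumors share a host, so tumor type and dog cannot be told apart.

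Estrogen and progesterone receptors are nuclear receptors that switch on target genes when bound by ovarian hormones, and in the mammary gland they mark a subset of luminal cells. Prolactin signals through its receptor to JAK2 and STAT5 and drives milk protein genes, while GATA3 and FOXA1 are transcription factors that maintain the luminal state and open chromatin for the estrogen receptor. EGFR, ERBB2, and ERBB3 are receptor tyrosine kinases that pair with each other, and KIT, the receptor of stem cell factor, is carried by luminal progenitors, mast cells, and melanocytes.

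Library totals ran from 11622444 to 29931125 counts, and 3 counts, taken as the lowest count that shows a gene, correspond to 0.100 to 0.258 CPM (counts scaled to a common library total with edgeR's trimmed mean of M values, TMM). The early RV library stood apart from the others. Its biopsy was read by the pathologists as dermatitis without definite neoplastic cells, and 12 measured epidermis markers (KRT1, KRT10, and others) summed to 2225 CPM there against 27.5 to 152 CPM in the other 12 libraries. The before and late libraries of the CL caudal tumor also stood apart. They held little of the luminal keratin KRT18, at 2.09 and 4.37 CPM, and the highest levels of ERBB4 in the series. In bulk tissue, fewer cells of a type and less RNA per cell cannot be told apart.

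**Figure D1:**
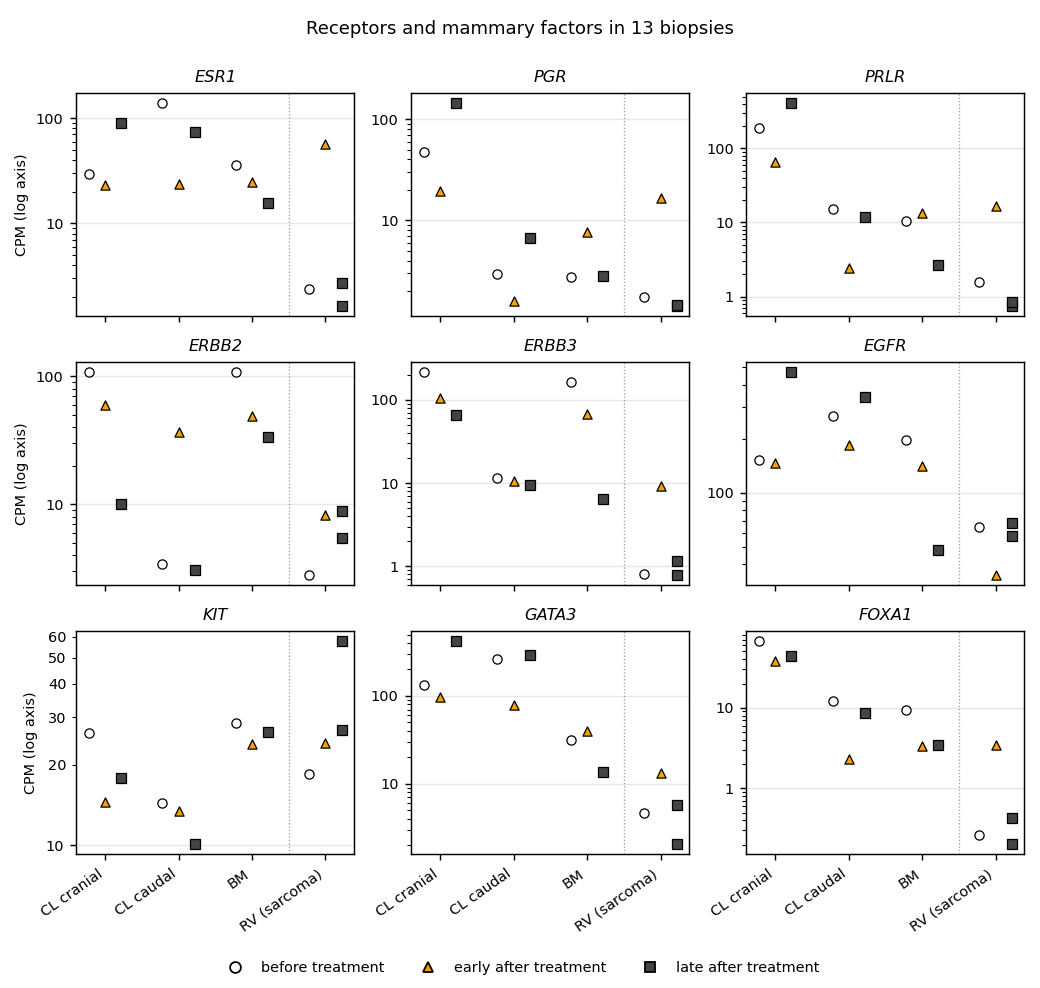
Level of each of the 9 genes (CPM on a log axis) in every biopsy, by tumor, with open circles for before, triangles for early, and squares for late libraries; the sarcoma stands right of the dotted line. ESR1 in the sarcoma sits at 1.63 to 2.71 CPM except in the early library, at 56.8 CPM.

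ESR1, the estrogen receptor alpha gene (chromosome 1, 42491321 to 42775607), was detected in all 13 libraries. In the order before, early, and late, it stood at 29.2, 23.3, and 89.5 CPM in the CL cranial tumor and at 139, 23.8, and 74.4 CPM in the CL caudal tumor. It measured 36.0, 24.6, and 15.7 CPM in BM. In the sarcoma it was at 2.40 CPM before treatment, 56.8 CPM early, and 2.71 and 1.63 CPM at the late injection and adjacent sites. The early sarcoma library therefore lay above all 3 early mammary libraries, while the other 3 sarcoma libraries lay below all 9 mammary libraries. Mean log2 CPM was 5.97 ± 1.29 in CL caudal, 5.30 ± 1.04 in CL cranial, 4.59 ± 0.60 in BM, and 2.36 ± 2.33 in RV (SD over 3, 3, 3, and 4 libraries). Ranges of neighbors in that order overlapped throughout.

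PGR, the progesterone receptor gene (chromosome 21, 532736 to 637643), which estrogen receptor activity induces in mammary cells, was highest in the CL cranial tumor. There it stood at 47.8, 19.4, and 144 CPM before, early, and late, against 2.93, 1.59, and 6.75 CPM in CL caudal. BM held 2.78, 7.70, and 2.81 CPM. The sarcoma held 1.73 CPM before, 16.7 CPM early, and 1.42 and 1.45 CPM late. Only the cranial tumor separated from the tumor next to it in the order of means, and BM, CL caudal, and RV overlapped. ESR1 was not ordered this way, since the caudal tumor, low in PGR, had the higher mean of ESR1 of the CL pair.

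PRLR, the prolactin receptor gene (chromosome 4, 74020052 to 74186420), ran closest to PGR of the other 8 genes. The CL cranial tumor held 186, 66.3, and 407 CPM, and the caudal tumor held 15.01, 2.40, and 11.7 CPM. In BM, PRLR was at 10.5, 13.5, and 2.65 CPM. In RV it was at 1.60 CPM before, 16.6 CPM early, and 0.746 and 0.847 CPM late. The lowest cranial library was above the highest of any other tumor, and the early sarcoma library again stood above its own before and late libraries. Over the 13 libraries, the correlation of log2 CPM between PRLR and PGR was r = 0.945, and over the 9 mammary libraries r = 0.956. These points share tumors and, within dog CL, a host.

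EGFR, the receptor of epidermal growth factor (chromosome 18, 5960845 to 6158207), had its lowest count of 622 in any library, so its values carry little counting error. It was at 152, 146, and 470 CPM in the cranial tumor of CL and at 268, 184, and 342 CPM in the caudal one, and BM held 197, 141, and 48.4 CPM. The sarcoma held 64.4 CPM before, 34.9 CPM early, and 68.4 and 57.3 CPM late. Unlike the steroid and prolactin receptors, EGFR was lowest in the early sarcoma library. The late BM library lay inside the sarcoma range, and the other 8 mammary libraries lay above it.

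ERBB2, the family member without a known ligand (chromosome 9, 22713484 to 22737693), stood at 108, 60.0, and 10.1 CPM in CL cranial. In CL caudal it was at 3.41, 36.5, and 3.07 CPM, and in BM at 108, 48.6, and 33.7 CPM. The sarcoma held 2.80 CPM before, 8.20 CPM early, and 5.49 and 8.95 CPM late. The caudal tumor thus spanned an 11.9-fold range, with 2 of its libraries within the sarcoma range and the early library well above it.

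ERBB3, whose kinase is nearly inactive and which signals by pairing with other family members (chromosome 10, 758352 to 776205), was at 214, 106, and 65.9 CPM in CL cranial. It was at 11.5, 10.6, and 9.55 CPM in CL caudal, the narrowest range of any tumor for this gene (1.20-fold). In BM it went from 163 CPM before to 67.2 CPM early and 6.47 CPM late, a 25.1-fold range. The sarcoma held 0.800 CPM before, 9.21 CPM early, and 1.15 and 0.786 CPM late. The late BM biopsy, in which pathologists saw carcinosarcoma and osteosarcoma features, was the lowest mammary library.

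KIT (chromosome 13, 47870472 to 47952050) varied least among the mammary libraries, over a 2.84-fold range. It was at 28.6, 23.9, and 26.5 CPM in BM, and dog CL held 26.2, 14.5, and 17.8 CPM cranially and 14.4, 13.4, and 10.1 CPM caudally. In RV it was at 18.5 CPM before, 24.02 CPM early, 27.0 CPM at the late injection site, and 57.7 CPM at the late adjacent site. KIT was the only one of the 9 genes with its highest tumor mean in the sarcoma, at 4.86 ± 0.70 log2 CPM (SD, n = 4) against 4.21 ± 0.53 over the mammary libraries (SD, n = 9), and these ranges overlapped.

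GATA3 (chromosome 2, 27112635 to 27142926) was at 134, 98.4, and 420 CPM in CL cranial and at 260, 78.2, and 294 CPM in CL caudal. BM held 31.8, 39.5, and 13.4 CPM. The sarcoma held 4.598 CPM before, 13.4 CPM early, and 5.70 and 2.06 CPM late. All 6 CL libraries lay above all 3 BM libraries, which was so for 4.98% of the 20118 genes that passed the filter and for no other of the 9 genes. FOXA1 (chromosome 8, 16245465 to 16251213) was at 67.2, 37.6, and 44.5 CPM in CL cranial and at 9.33, 3.37, and 3.44 CPM in BM, with 12.2, 2.32, and 8.66 CPM in CL caudal. The sarcoma held 4 FOXA1 counts before treatment (0.267 CPM), 61 counts early (3.42 CPM), and 3 and 7 counts late (0.204 and 0.423 CPM), so its levels outside the early library were near the detection floor. The pair of luminal factors differed in where they were high: GATA3 was alike in both CL tumors, whereas FOXA1 was high in the cranial tumor only.

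The first comparison, between the 3 mammary tumors and the sarcoma, asked how far these genes mark the tumor type. Counts were summed per tumor because biopsies of one mass are not independent. With 1 sarcoma, the spread in this test comes from the 3 mammary tumors alone (2 residual degrees of freedom, and 1 with a tumor left out), and the sarcoma is assumed to vary like them. In edgeR's quasi-likelihood test, 8 of the 9 genes were higher in the mammary tumors and KIT was not, with a median log2 fold change of 3.34 against -0.01 over all genes. None of the 9 passed an adjusted p of 0.05, which 1.01% of 28253 genes did. At an unadjusted p under 0.05, 6 of 9 were higher (ESR1, ERBB2, ERBB3, EGFR, GATA3, and FOXA1), against 5.37% of all genes. DESeq2 called 5 of 9 (PRLR, ERBB2, ERBB3, GATA3, and FOXA1) and 4.56% of all genes. With 1 mammary tumor left out, edgeR called 2 of the 9 and 462 of 27934 genes without CL cranial, 6 of the 9 and 1605 of 28339 genes without CL caudal, and 5 of the 9 and 840 of 27486 genes without BM.

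By size, ERBB3 had a log2 fold change of 4.95 ± 1.54 (SE, adjusted p = 0.291, edgeR). GATA3 was at 4.71 ± 1.23 (adjusted p = 0.120) and FOXA1 at 4.45 ± 1.498 (adjusted p = 0.291). ERBB2 stood at 3.34 ± 0.93 (adjusted p = 0.114). The smaller differences were 2.26 ± 0.85 for EGFR (adjusted p = 0.300) and 1.82 ± 0.81 for ESR1 (adjusted p = 0.352). PRLR, at 3.88 ± 3.02, and PGR, at 2.14 ± 1.94, had standard errors close to the differences themselves, and without the CL cranial tumor PGR was at -0.13. KIT was at -0.33 ± 0.72. Without the early library of RV the ESR1 difference became 4.19 ± 0.95 (adjusted p = 0.0272), with 552 of 25837 genes called.

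**Figure D2:**
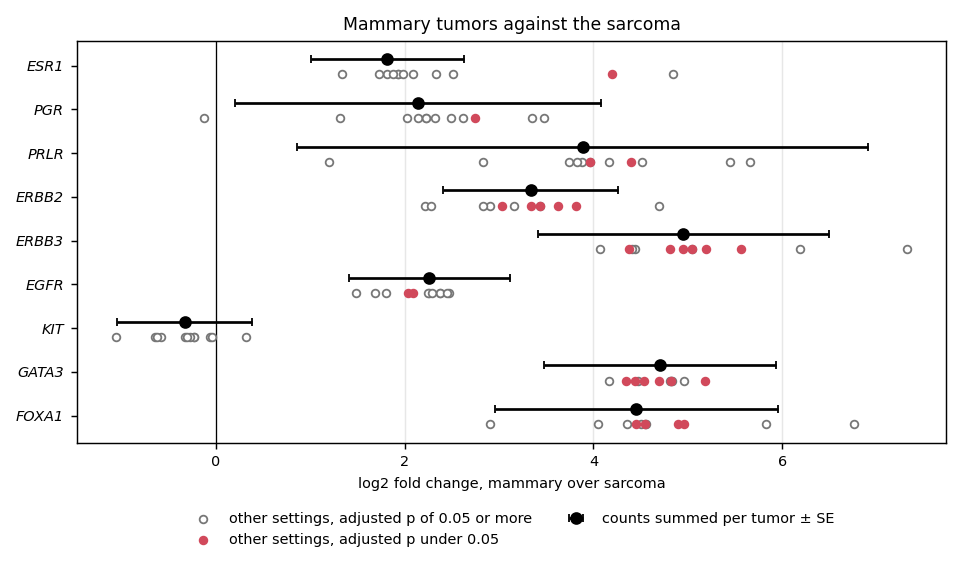
Log2 fold change of the 9 genes, mammary tumors over the sarcoma. Black points with bars are the test on counts summed per tumor with its SE, and small points are the other settings, filled red where the adjusted p was under 0.05. KIT lies around 0 at -0.33, and GATA3 stays between 4.16 and 5.18 in every other setting.

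Library by library, all 9 mammary values of GATA3 lay above all 4 sarcoma values, by 13.44 against 13.36 CPM at the nearest pair. This held for 1.59% of the 20118 genes and for no other of the 9, and for none of the 9 when CPM were not scaled by TMM. When the early sarcoma library was left out, 5 of the 9 separated (ESR1, PRLR, ERBB3, GATA3, and FOXA1), as did 8.94% of all genes. Cell markers moved along with the tumor type. The 18 luminal epithelium markers summed to between 513 and 5986 CPM in mammary and between 329 and 1404 CPM in sarcoma libraries. In the sarcoma this sum came largely from KRT7, at 957, 804, and 382 CPM outside the early library, while KRT18 was at most 2.13 CPM there. Of the luminal list, KRT8, CLDN4, EHF, and ELF5 were called higher in the mammary tumors (4 of 18, none lower). Over all genes, 80 of 28253 were called higher. KRT8, a luminal keratin, had a log2 fold change of 6.17 ± 1.28 and ELF5, a factor of the milk secreting lineage, 3.99 ± 0.92 (adjusted p = 0.0238 and 0.0393, edgeR). The part of cell composition in the receptor differences was not tested.

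Both tumors of dog CL grew in the same animal, and these genes were compared between them. All 3 cranial libraries lay above all 3 caudal libraries for 5 of the 9 genes (PGR, PRLR, ERBB3, KIT, and FOXA1), against 11.7% of all 20118 genes, and for none of the 9 in the other direction, against 10.6%. For KIT the nearest pair was 14.48 against 14.42 CPM. For the other genes the gaps were wide: the lowest cranial value was 66.3 CPM for PRLR and 37.6 CPM for FOXA1, and the highest caudal value was 15.01 and 12.2 CPM. ESR1, ERBB2, EGFR, and GATA3 overlapped. With 1 library per tumor and time point, this comparison describes 2 tumors and has no test. Summed luminal markers moved the same way, at 3544 to 5986 CPM in the cranial and 831 to 1169 CPM in the caudal tumor, and their part was not tested.

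The second question was how the genes changed after treatment within the mammary tumors. At 1 week, 7 of the 9 genes had a lower fitted level than before treatment, with a median log2 fold change of -0.50 against 0.06 over all genes. None was called in edgeR, where 0.0% of 19975 genes were. DESeq2 also called 0 of 9, along with 267 of 19975 genes. FOXA1 was the 1 gene with an unadjusted p under 0.05, at -1.49 ± 0.51 (SE, adjusted p = 0.656), against 1.5% of genes that were lower at that level. FOXA1 was lower in 3 of 3 mammary tumors, by 2.35 in CL caudal, 1.44 in BM, and 0.84 in CL cranial on the log2 scale. ESR1, ERBB3, EGFR, and KIT were also lower in 3 of 3, making 5 of 9 genes against 13.2% of all genes. For ERBB3 and KIT this rests on changes of -0.12 and -0.10 in CL caudal, which turned to 0.33 and 0.35 without TMM scaling.

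The members did not move alike across tumors at 1 week. ERBB2 went from 3.41 to 36.5 CPM in CL caudal, a log2 change of 3.38, while it went from 108 to 60.0 CPM in CL cranial and from 108 to 48.6 CPM in BM. Between the same CL caudal libraries, basal and myoepithelial markers went from 1390 to 5142 CPM, the share of ribosomal protein genes from 13.4% to 7.15% of counts, and the gene-dense level (median log2 CPM of genes with many coding neighbors minus that of genes with few) from -1.85 to 0.27. In the same caudal pair, ESR1 went from 139 to 23.8 CPM, a change of -2.54, and PRLR from 15.01 to 2.40 CPM, a change of -2.60. Without CL caudal the fitted ERBB2 change was -0.97 in place of 0.36, and that of ESR1 -0.46 in place of -1.18. PGR had opposite signs in dog CL, at -1.30 and -0.84, and dog BM, at 1.44. Summed macrophage markers went from 534 to 2132 CPM in CL cranial, from 647 to 1083 CPM in CL caudal, and from 265 to 3125 CPM in BM at 1 week (10 of 10 fitted higher, 8 with an unadjusted p under 0.05 and none called). The part of these measures in the changes was not tested.

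At the late biopsies, ERBB2 and ERBB3 had the most negative fitted changes. Again 0 of 9 genes and 0.0% of all genes were called in edgeR. DESeq2 called 0 of 9 and 186 of 19975 genes. ERBB2 was at -2.07 ± 0.86 (SE, adjusted p = 0.639) and ERBB3 at -1.97 ± 0.76 (adjusted p = 0.639), both with an unadjusted p under 0.05, which 4.94% of genes reached in that direction. ERBB2 went from 108 to 10.1 CPM in CL cranial and from 108 to 33.7 CPM in BM, but only from 3.41 to 3.07 CPM in CL caudal. For ERBB3, BM had the largest change, with a log2 change of -4.63 against -1.70 in CL cranial and -0.26 in CL caudal. Without BM the fitted ERBB3 change was -1.004, and without CL cranial the fitted ERBB2 change was -1.21.

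ERBB2, ERBB3, KIT, and FOXA1, 4 of the 9 genes, were lower late in 3 of 3 mammary tumors, as were 17.1% of all genes. PGR alone was higher in 3 of 3, as were 14.2% of all genes, although its change in BM was 0.02 and became -0.67 without TMM scaling. The CL cranial tumor and BM had changes of opposite sign for ESR1, PRLR, EGFR, and GATA3. In the cranial tumor ESR1, PGR, PRLR, EGFR, and GATA3 were higher late, by 1.61, 1.58, 1.13, 1.62, and 1.65 on the log2 scale. In BM the same genes changed by -1.19, 0.02, -1.95, -2.02, and -1.23. These are single libraries, and the difference between the tumors was not tested.

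**Figure D3:**
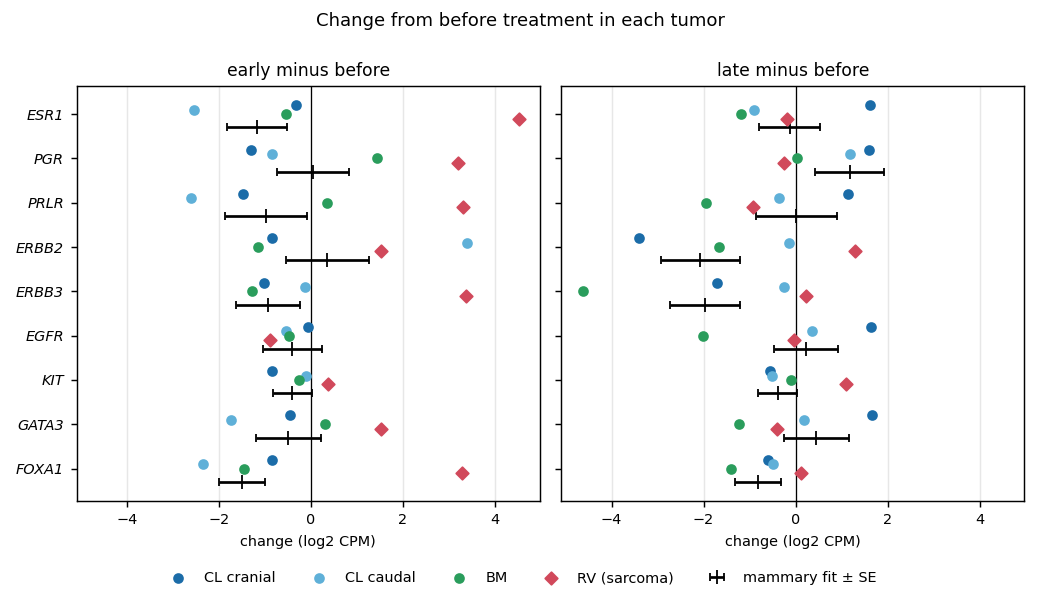
Log2 change in CPM from the before library in each tumor (points) at the early and late biopsies, with the fit over the 3 mammary tumors and its SE (bars). The sarcoma point lies far right of the mammary points early for ESR1 at 4.51 and FOXA1 at 3.27.

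In BM, marker genes of other cells changed together with the receptors. Luminal markers summed to 3929 CPM before, 2745 CPM early, and 513 CPM late, and basal and myoepithelial markers to 7490, 3658, and 449 CPM. The 10 stromal markers, among them the collagen gene COL1A1, summed to 2308, 31500, and 111400 CPM. Osteoblast markers summed to 363, 1218, and 805 CPM, and SPP1 had the highest mean of that list over the series, at 688 CPM. The mean log2 CPM of the same markers was 2.06, 2.45, and 4.34 in BM, so it was highest late. ESR1, ERBB3, EGFR, and GATA3 were lowest of all 9 mammary libraries in this late biopsy, and KIT, at 26.5 CPM, was not. The part of these cell markers in the changes was not tested.

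At the early biopsy of the sarcoma, 8 of the 9 genes were above their level before treatment. ESR1 was higher than before by 4.51, ERBB3 by 3.37, PRLR by 3.30, FOXA1 by 3.27, and PGR by 3.195 on the log2 scale, and EGFR was lower by a change of -0.88. Higher early in the sarcoma and lower in all 3 mammary tumors were 4 of the 9 genes (ESR1, ERBB3, KIT, and FOXA1), against 5.31% of all genes, and for ERBB3 and KIT this again depends on the TMM scaling noted above. The difference between the early changes, mammary minus sarcoma, was tested as an interaction. It was -5.74 ± 1.36 for ESR1 and -5.15 ± 1.19 for FOXA1 (SE, both with adjusted p = 0.0913, edgeR). It was -4.45 ± 1.44 for ERBB3 (adjusted p = 0.117) and -4.34 ± 1.69 for PRLR (adjusted p = 0.157).

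The median over the 9 genes was -3.22 against -0.11 over all genes. None of the 9 was called in that fit, as was the case for 0.0% of all 20118 genes, and 4 of 9 had an unadjusted p under 0.05 and a lower value in the mammary tumors, against 16.7% of genes. DESeq2 called the same 4 genes (ESR1, PRLR, ERBB3, and FOXA1), along with 17.1% of all genes. The test assumes that the lone early sarcoma library varies like the others. In this library the epidermis markers, at 2225 CPM, were joined by the basal keratins KRT5 and KRT14 at 418 and 602 CPM, against 15.4 and 5.13 CPM before. Ribosomal protein genes took 3.42% of its counts and long noncoding RNAs 5.42%, against 5.01% to 17.5% and 0.579% to 1.74% in the other libraries. Stromal markers stood at 3639 CPM against 23360 to 41120 CPM in the other sarcoma libraries. Tumor, skin, time point, and library cannot be told apart in this comparison.

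**Figure D4:**
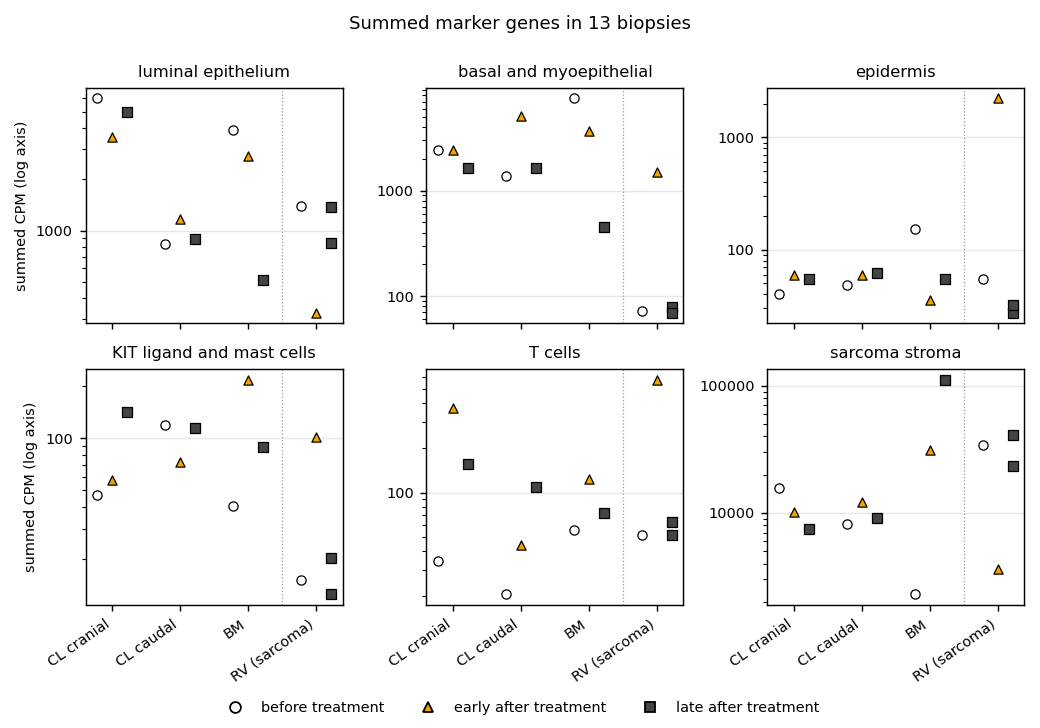
Summed CPM of 6 marker lists (log axis) in each biopsy, by tumor, with open circles for before, triangles for early, and squares for late libraries. The epidermis sum reaches 2225 CPM in the early sarcoma library against at most 152 CPM elsewhere, and the stromal sum reaches 111400 CPM in the late BM library.

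The late changes were compared between the mammary tumors and the sarcoma in the same way. ERBB2 was higher late in the sarcoma, by 1.30, and lower in all mammary tumors, and the interaction was -3.44 ± 1.53 (SE, adjusted p = 0.998, edgeR). It was the 1 gene of 9 with an unadjusted p under 0.05, against 1.55% of genes in that direction, and 0.0% of all genes were called. With all 4 tumors in one fit, 0 of the 9 genes were called at any time, in edgeR or in DESeq2. Over all 20118 genes, DESeq2 called 956 early against before, 7 late against before, and 4809 late against early. In edgeR, 0.00497% of 20118 genes were called early against before. None of the 9 but 10.9% of all genes had an unadjusted p under 0.05 there. Late against before, 0.0% were called, and ERBB3, at -1.79 ± 0.80, was the 1 gene below 0.05 unadjusted, against 2.72% of genes. Late against early, 0.00994% were called, and ERBB3, at -1.84 ± 0.75, was again the 1 gene, against 17.7%. EGFR was lower early in 4 of 4 tumors, as were 7.85% of all genes, with a fitted change of -0.53 ± 0.49 (adjusted p = 0.663).

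Relatives and ligands of the receptors were read from fixed lists. ERBB4, the 4th ERBB receptor, had its highest value in the CL caudal tumor. It was at 2039, 309, and 1580 CPM in CL caudal, 156, 121, and 897 CPM in CL cranial, and 45.6, 80.7, and 4.96 CPM in BM. In the sarcoma it was at 12.99 CPM before, 211 CPM early, and 11.1 and 7.20 CPM late. Of the 11 ERBB ligands and relatives, none was called in any comparison. In the mammary tumors late against before, 7 of the 10 tested had lower fitted values. EGF at -3.63 ± 0.83 and BTC at -2.49 ± 0.85, ligands of EGFR, led them (adjusted p = 0.639 for both, edgeR). Late counts in CL cranial, CL caudal, and BM were 14, 3, and 1 for EGF and 3, 6, and 6 for BTC. Both changes thus rest on values near the detection floor. The neuregulin gene NRG1, a ligand of ERBB3 and ERBB4, was at 4.42 to 17.1 CPM in 3 sarcoma libraries and at 245 CPM in the early one.

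Among genes that ERBB and MAP kinase signaling induces, 11 of 11 were higher in the mammary tumors than in the sarcoma, with a median of 2.41. ETV4, an ETS transcription factor, was the 1 gene called, at 4.21 ± 0.98 (adjusted p = 0.0438, edgeR). Of 15 estrogen response genes tested, 11 were higher in the mammary tumors with a median of 0.90, and STC2, a secreted glycoprotein, was the 1 gene called, at 4.22 ± 0.94 (adjusted p = 0.0325). TFF1, a classic estrogen target in human breast cells, was at or near 0 throughout, with at most 0.16 CPM. GREB1, another such target, was at 12.3, 2.41, and 22.9 CPM in BM and at most 3.001 CPM in dog CL, so it did not follow ESR1 between the dogs.

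ESR2, the estrogen receptor beta gene, was at 15.9, 0.71, and 8.82 CPM in BM and at most 1.501 CPM in dog CL, and reached 10.3 CPM in the early sarcoma library. None of the 11 steroid receptor and coregulator genes was called in any comparison.

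Of the 14 prolactin and STAT5 genes, none was called. The milk protein gene LALBA, a target of prolactin signaling, was at 48.8, 12.5, and 223 CPM in CL cranial, the tumor with the high PRLR, and at most 5.39 CPM in the other 10 libraries. The casein gene CSN2 was highest, at 35.2 CPM, in the early CL cranial library, where PRLR was lowest within that tumor. The whole list did not follow PRLR in CL cranial. It summed to 4687, 5006, and 1662 CPM before, early, and late, with mean log2 CPM of 4.29, 5.27, and 5.07. Its highest means over the series were LTF at 913, JAK2 at 96.0, GHR at 85.6, and STAT5B at 69.3 CPM.

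KITLG, which encodes the ligand of KIT, was at 28.2 to 130 CPM in dog CL, at 20.5 to 48.3 CPM in BM, and at 7.20 to 28.01 CPM in RV. Of 9 measured genes of the list of KIT ligand and mast cell markers, 8 were higher at 1 week in the mammary tumors (median 1.52, none called). CPA3, a mast cell protease, went from 1.61 to 47.7 CPM in BM while KIT went from 28.6 to 23.9 CPM. The sum of 6 melanocyte markers, most of it MITF, ran from 6.31 to 92.9 CPM. At the late adjacent site of RV, where KIT was highest, MITF was at 77.04 CPM and DCT, a melanin enzyme, at 15.2 CPM, while the melanin enzymes TYR and TYRP1 were at 0. DCT was called lower in the mammary tumors (-4.63 ± 1.10, adjusted p = 0.0466, edgeR). The part of these cells in the KIT level was not tested.

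The remaining marker lists were read against all genes, of which 80 of 28253 were called higher and 206 lower in mammary against sarcoma. Of the basal and myoepithelial list, KRT15, MYH11, CNN1, MYLK, and ITGB4 were called higher in the mammary tumors than in the sarcoma (5 of 12). In that list 10 of 12 were higher at an unadjusted p under 0.05 (edgeR). Of the epidermis list KRT2, DSC1, IVL, and KRTDAP were called lower (4 of 12). The summed sarcoma counts include the early RV library, where the 12 epidermis markers summed to 2225 CPM. The other sarcoma libraries held 27.5 to 55.2 CPM of them, and the mammary libraries 35.5 to 152 CPM. FAP, a fibroblast protease, was called lower (1 of 10 stromal genes) and ALPL higher (1 of 8 osteoblast genes). T cell, macrophage, and adipocyte lists had no call there, and ADGRE1, a macrophage receptor, was lower late than early over all 4 tumors (-3.26 ± 0.41, adjusted p = 0.0448, edgeR), a call lost with any tumor left out, without the tumor block, with only the libraries compared, and with either late RV site alone.

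Some of the levels also moved with a property of the libraries that is computed over many genes. A gene-dense level was computed for each library as the median log2 CPM of genes with at least 49 protein-coding neighbors within 1 Mb minus that of genes with at most 14, set to a median of 0 over the libraries. It was -1.85 and -1.53 in the before and late CL caudal libraries, -0.65 in late CL cranial, -0.83 in early RV, and -0.05 to 0.84 in the other 9. ERBB2 and ERBB3 lie among 61 and 67 coding neighbors, at the 82nd and 85th percentile of tested genes. ESR1, GATA3, EGFR, and PGR have 12, 6, 8, and 4. The genes named here belong to the 3927 gene-dense or 4120 gene-sparse genes from which the level is computed. The sign of a correlation with the level is therefore not independent of the set a gene is in. Over the 9 mammary libraries the correlation with this level was r = 0.909 for ERBB2 and r = -0.932 for ESR1, and ERBB4, with 1 coding neighbor, was at r = -0.86.

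**Figure D5:**
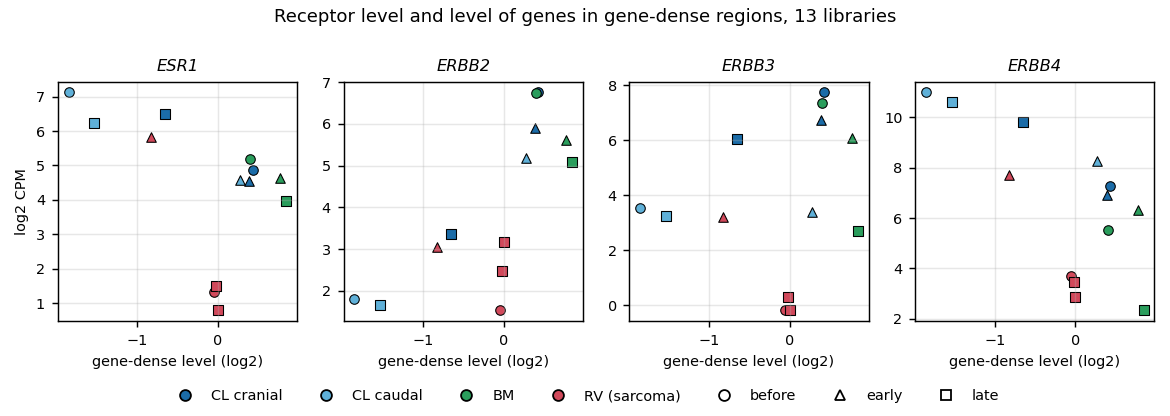
Log2 CPM of ESR1, ERBB2, ERBB3, and ERBB4 against the gene-dense level (log2) in the 13 libraries, with color for tumor and shape for time point. Over the 9 mammary libraries ERBB2 rises with the level (r = 0.909) and ESR1 falls with it (r = -0.932). The before and late sarcoma libraries of ESR1 stand apart, at 0.79 to 1.49 log2 CPM. The early sarcoma library, at 5.83 log2 CPM, lies within the mammary range of 3.98 to 7.12.

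The other genes were less bound to it: r was -0.79 for GATA3, -0.72 for EGFR, 0.69 for KIT, 0.39 for ERBB3, -0.19 for FOXA1, -0.14 for PRLR, and -0.03 for PGR. Within this set, ESR1 and ERBB2 ran against each other over the mammary libraries (r = -0.79). With offsets for gene density and gene span in the fit, chosen after seeing the data, the ERBB2 change at 1 week was -0.09 in place of 0.36. These correlations are descriptions over 9 libraries of 3 tumors, and what sets the gene-dense level was not tested.

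Genes whose pattern was most like each of the 9 were listed from 12427 candidates by the correlation of log2 CPM over 13 libraries. ESR1 ran closest to SDC4 (r = 0.984), ARID1B, and ACSS3, and ERBB2 to KIAA0753 (r = 0.978), ZNF775, and PASK. ERBB3 ran with LSR (r = 0.98), VTCN1, and ARHGAP8. PRLR ran with ARHGEF38 (r = 0.953), HPX, and CCL28, and PGR with PRLR, CCDC172, and GRAMD1B. FOXA1 shared CCL28 (r = 0.972) with PRLR, followed by C25H2orf72 and MLPH. GATA3 was nearest to INPP1 (r = 0.95), PHLDA1, and METTL21A, and EGFR to STN1 (r = 0.962), PBX4, and FST. KIT had the loosest neighbors, CRTAC1 (r = 0.881), MFAP3, and MED23. Such correlations are taken as the highest of many and share tumors and hosts.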

How the data were processed

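Strand-specific libraries were aligned by the authors to CanFam4.0 with Strand NGS, and raw read counts per gene symbol were deposited without normalization. The counting rule, annotation release, and treatment of reads shared between genes are not given in the sources used here. Every value above was computed from these deposited counts. Of the symbols, 98.0% matched RefSeq annotation of UU_Cfam_GSD_1.0, the assembly also named CanFam4, which gave positions and gene neighbors. Transcript lengths and sequences were not used here, so levels are compared within genes and not between them.

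The 9 genes and 15 gene lists were chosen with earlier results of these data known. Named were the 9 genes, the listed genes past the threshold or among the 4 highest of a list, the relatives and ligands, and the 3 most similar genes per member. KRT18, TFF1, GREB1, LALBA, CSN2, and TYRP1 lay outside this rule and were chosen after their values were seen.

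Genes were filtered with filterByExpr (minimum count 10), leaving 20118, and tested with edgeR 4.0.16 (R 4.3.3): TMM scaling, glmQLFit with robust estimation, glmQLFTest, tumor as block, and Benjamini-Hochberg adjustment over all genes tested, with a threshold of 0.05. Mammary and sarcoma tumors were compared on counts summed per tumor. Log2 CPM used a prior count of 2. The pairing comes from the tumor, which was sampled repeatedly. Deviations from group means correlated at a mean r of 0.229 between before and early libraries of a tumor, against -0.07 between tumors, and at 0.587 against -0.20 between before and late. In the time fits, p-values rest on the spread of the changes between these tumors. With RV in the fit, they also rest on the spread between its late sites, which is within 1 tumor. For mammary against sarcoma, they rest on the spread between the mammary tumors, of which the CL tumors share a host. No library was a copy of another (lowest chi-square over degrees of freedom, 49.4).

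Alternatives were DESeq2 1.42.0, size factors by its method, no filter, no block, each tumor left out, only the time points compared, a single late RV site, and for tumor type libraries or dogs as units, limma 3.58.1 voom, before libraries only, and RV without its early library. Tables and figures used Python 3.11.15, numpy 2.4.6, pandas 2.3.3, and matplotlib 3.10.9. Floors cover counting error only, whereas the SD and SE values also hold the spread between libraries or tumors. One gene of the lists is not reported here.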

Additional observations from a re-analysis of the deposited data

Results flagged for a closer look

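In groups of 4 or 5 libraries at 1 time point, a single library lay far from the others for 4 of 27 group and gene pairs. The rule would flag about 1 in 20, or 1.35, for independent genes and libraries of a single distribution. These groups mix mammary tumors with a sarcoma and the genes are correlated, so the 2 numbers cannot be compared. ESR1 was at 56.8 CPM in the early RV library against 23.3 to 24.6 CPM in the other early libraries. EGFR was at 34.9 CPM in the same library against 141 to 184 CPM. PGR was at 47.8 CPM in the CL cranial tumor before treatment against 1.73 to 2.93 CPM in the other tumors. FOXA1 was at 37.6 CPM in the early CL cranial library against 2.32 to 3.42 CPM in the others.

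For 4 genes the early change was higher in the sarcoma and lower in all 3 mammary tumors, as it was for 5.31% of all genes. Without TMM scaling, the CL caudal changes of ERBB3 and KIT turned from -0.12 and -0.10 to 0.33 and 0.35. The late PGR change in BM, given below, turned from 0.02 to -0.67. The sarcoma changes on the log2 scale were 4.51 for ESR1, 3.37 for ERBB3, 3.27 for FOXA1, and 0.38 for KIT, and the mammary changes ran from -2.54 to -0.32, -1.27 to -0.12, -2.35 to -0.84, and -0.85 to -0.10. The interaction test of the early difference gave edgeR adjusted p-values of 0.0913 for ESR1 and FOXA1, 0.117 for ERBB3, and 0.588 for KIT. Late, the sarcoma change was -0.25 for PGR, 1.30 for ERBB2, and 1.09 for KIT, against 0.02 to 1.58, -3.40 to -0.15, and -0.56 to -0.11 in the mammary tumors, and the interaction test gave an adjusted p of 0.998 for all 3.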

How the results depend on the processing

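Calls over all genes differed between settings. Late against early over all 4 tumors had 1081 of 35274 with no filter, 4809 of 20118 with DESeq2, and 539 of 20118 with the offsets. Early against before had 17 of 35274 with no filter and 956 of 20118 with DESeq2. In the mammary tumors, no filter and DESeq2 gave 29 of 34033 and 267 of 19975 at 1 week, and 7 of 34033 and 186 of 19975 late. The count of the 9 genes called was 0 and stayed 0 in the 6 comparisons of time points and of late changes under every alternative run, the fit with no replicate block among them. For the early difference between mammary tumors and sarcoma it went from 0 (0 of all genes) to 3 with no filter (1505 of 35274 genes) and to 4 with DESeq2 (3435 of 20118). For mammary against sarcoma it went from 0 (286 of 28253 genes) to 4 with no filter (866 of 35274), 5 with DESeq2 (1288 of 28253), 2 with 13 libraries as units (589 of 20118), 2 with counts summed per dog (438 of 28694), and 1 with the sarcoma without its early library (552 of 25837). With a tumor left out it was 2 (without CL cranial, 462 of 27934) to 6 (without CL caudal, 1605 of 28339), and 5 without BM (840 of 27486). It stayed 0 with DESeq2 size factors, limma voom, before libraries only, and offsets for gene density and span. The causes were not tested.

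Signs turned in 10 further values, and in 9 with a tumor left out. At 1 week in the mammary tumors, PGR (0.05) was -0.0049 with DESeq2 size factors, -0.0050 with DESeq2, -0.28 with only the libraries compared, and -0.90 with no replicate block, and ERBB2 (0.36) was -0.59 with no replicate block and -0.095 with the offsets. Late, PRLR (0.01) was -0.037 with no filter and -0.42 with only the libraries compared, and EGFR (0.22) was -0.0036 with only those. KIT in mammary against sarcoma was 0.32 in before libraries only. The block changed no call. With a tumor left out, 1-week values ran from -1.16 to 0.62 for PGR, -0.97 to 1.34 for ERBB2, and -1.22 to 0.069 for GATA3. Late values ran from -1.01 to 0.43 for ESR1, -0.86 to 0.38 for PRLR, -0.66 to 1.01 for EGFR, and -0.32 to 0.88 for GATA3, and PGR in mammary against sarcoma from -0.13 to 2.75. Leaving out TMM moved the median change of all genes by -0.70 (BM late) to 0.69 (RV early).

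The design holds 3 mammary tumors and 1 sarcoma, with 1 library for most tumors and time points. Depth limits FOXA1 in the sarcoma.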
